A study of Mus musculus with 12 samples.

Results

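The genes described here are 7 genes whose products are stored in the granules of Paneth cells or process what the granules hold: Lyz1, Defa17, Defa24, Itln1, Ang4, Pla2g2a and Mmp7. They were picked by symbol from the 23284 genes of the deposited expression table, and all 7 were in it. The table gives FPKM values, which are fragments per kilobase of transcript after scaling between libraries. All 7 also passed the filter on low values (1 FPKM in 3 or more of the 12 libraries), as did 12502 genes in all, though Ang4 and Mmp7 did so with 5 libraries each. Paneth cells sit at the base of small intestinal crypts and release antimicrobial proteins into the crypt lumen. Lysozyme cleaves bacterial cell walls, alpha-defensins disrupt microbial membranes, and secretory phospholipase A2 attacks bacterial phospholipids. Mouse alpha-defensins are made as inactive precursors that matrilysin, the product of Mmp7, cuts into mature peptides. Wnt signalling maintains the Paneth cell programme, and group 3 innate lymphoid cells (ILC3s), which are not known to make these granule proteins, release interleukin-22, which acts on the epithelium.

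The RNA came from ILC3s sorted from the small intestine of HR-1 mice, a hairless strain, at 18 weeks of age. The PA milk group had been suckled by dams eating a diet rich in palmitic acid, a long-chain saturated fatty acid, and the ND group had received normal milk. The intraepithelial layer (IEL) and the lamina propria (LP) were sequenced separately, so that the 12 libraries form 4 groups of 3, named PA IEL, ND IEL, PA LP and ND LP. The sort gate took lineage-negative cells positive for Thy1.2, CD25 and Nrp1, the sources differ on whether CD4 or CD45 was the further marker, and cDNA was amplified from very small amounts of RNA. Nothing in the sources used here says how many mice gave a library, or whether same-numbered IEL and LP libraries came from 1 mouse, so p-values measure the spread between these libraries, which may be technical.

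Depth was 8.75 to 14.6 M reads per library, worked out from the spacing of low FPKM values. PA IEL replicate 2 had 4390 genes at an FPKM of at least 1, PA LP replicate 2 had 5637 and ND IEL replicate 2 had 7863, whereas the other 9 libraries had 8406 to 11378. Of 12 marker genes of the sorted cells, 11, 1 and 11 reached 1 FPKM in PA IEL replicates 1 to 3, and 12, 5 and 12 in ND IEL. The same count was 5, 3 and 9 in PA LP, against 8, 12 and 10 in ND LP. Fewest sort markers were thus seen in PA IEL replicate 2, PA LP replicates 1 and 2 and ND IEL replicate 2.

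The granule genes were high together or low together within a library. Each gene was compared with its own median over the 12 libraries. In ND IEL replicates 1 and 3, PA LP replicates 2 and 3 and ND LP replicate 3, all 7 genes lay above their medians, and in ND LP replicate 1 this held for 6. For Mmp7 the median lies between single-read values, so its place above it in PA LP replicate 2, at 1 read, has no weight. In the other 6 libraries, which were the 3 of PA IEL, ND IEL replicate 2, PA LP replicate 1 and ND LP replicate 2, 0 of the 7 genes did. The 7 FPKM values summed to 239, 175 and 54.9 in PA IEL and to 3670, 436 and 3245 in ND IEL. In LP the sums were 387, 3440 and 3822 with PA milk and 5779, 739 and 2866 with ND. The PA IEL sums were lower than all other 9, and each of the other groups held both a library under 1000 and libraries above 2000. As a share of all FPKM in a library, the 7 genes took from 0.00645% in PA IEL replicate 3 to 0.734% in ND LP replicate 1. The gate should leave Paneth cells out, and which cells or carried-over RNA these transcripts came from was not tested.

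**Figure D1:**
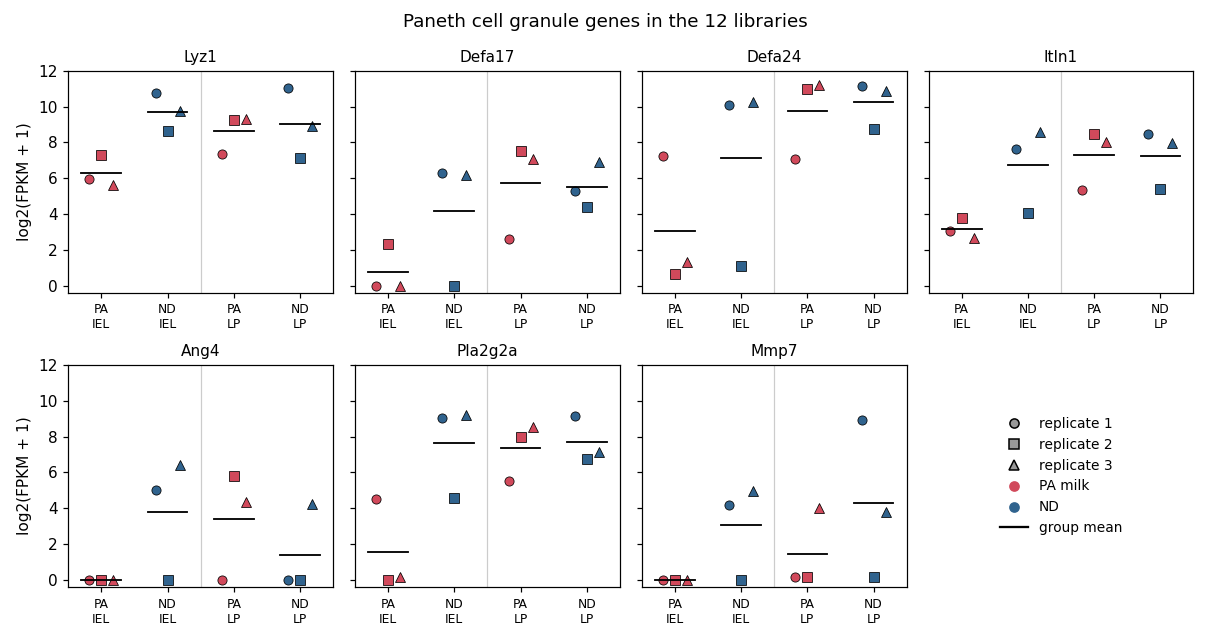
Level of each of the 7 Paneth granule genes in the 12 libraries, as log2(FPKM + 1) on the vertical axis, with the 4 groups on the horizontal axis, 1 symbol per library and a line at the group mean. All 3 PA IEL libraries lie below all 3 ND IEL libraries for Lyz1, Itln1 and Pla2g2a, while the PA LP and ND LP libraries overlap for all 7 genes.

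Lyz1, which encodes the lysozyme of Paneth cells, was at 61.4, 157 and 47.9 FPKM in PA IEL and at 1707, 396 and 860 in ND IEL. Its values were 165, 603 and 637 in PA LP and at 2106, 139 and 483 in ND LP. In IEL every PA milk library was below every ND library, and in LP the ND libraries held both the highest and the lowest value. On the log2(FPKM + 1) scale the group means of Lyz1 were 6.29 ± 0.89 in PA IEL against 9.71 ± 1.05 in ND IEL (SD, n = 3), and 8.64 ± 1.10 in PA LP against 9.03 ± 1.96 in ND LP (SD, n = 3). The order from high to low was ND IEL, ND LP, PA LP and PA IEL, and of these neighbours PA LP and PA IEL did not overlap. The log2 fold change of PA milk against ND was -3.41 (SE 0.85) in IEL, with a limma adjusted p of 0.947, and -0.39 (SE 0.85) in LP, with a limma adjusted p of 0.985. In LP the sign turned without PA LP replicate 1 (0.25) or ND LP replicate 1 (0.62). Limma fits all genes tested in 1 linear model and shares their spread. The exact two-sided permutation test in IEL gave p = 0.1, the smallest value that 3 against 3 libraries can reach.

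Defa24, the alpha-defensin with the highest mean level among the 7 genes, was at 148, 0.552 and 1.5 FPKM in PA IEL and at 1105, 1.11 and 1218 in ND IEL. In LP Defa24 was at 132, 1988 and 2397 with PA milk and at 2243, 434 and 1844 with ND. The values of 0.552 in PA IEL replicate 2 and 1.11 in ND IEL replicate 2 stand for 2 and 3 reads, so the replicate 2 libraries of both diets were at the limit of detection in IEL, and the groups overlapped. The log2 fold change was -4.09 (SE 2.06; limma adjusted p 0.947) in IEL, where the range with a single library left out ran from -7.12 without ND IEL replicate 2 to -2.54 without ND IEL replicate 3. It was -0.50 (SE 2.06; limma adjusted p 0.994) in LP, where leaving out PA LP replicate 1 turned it to 0.84.

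Defa17, another alpha-defensin, was at 0, 3.94 and 0 FPKM in PA IEL and at 76.8, 0 and 71.0 in ND IEL. In LP Defa17 was at 4.99, 185 and 132 with PA milk and at 37.7, 19.8 and 120 with ND. As with Defa24, ND IEL replicate 2 was among the lowest libraries, and in LP the PA milk values spread on both sides of the ND values. The log2 fold change of Defa17 was -3.38 (SE 1.69; limma adjusted p 0.947) in IEL, with a range from -5.46 without ND IEL replicate 2 to -2.32 without ND IEL replicate 1. It was 0.21 (SE 1.69; limma adjusted p 1) in LP, and there the sign changed when PA LP replicate 2 (-0.70), PA LP replicate 3 (-0.46) or ND LP replicate 2 (-0.37) was left out, and under upper-quartile scaling (-0.21). The level of this gene is uncertain, since 91.95% of the 50-base stretches of its transcript occur in transcripts of other genes. All of these stretches occur in Defa3, which was listed at 0 or close to it in all 12 libraries.

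Mmp7, whose protease activates the alpha-defensin precursors, was listed at 0 in all 3 PA IEL libraries and at 16.9, 0 and 30.1 FPKM in ND IEL. Its values were 0.116, 0.136 and 15.4 in PA LP, against 483, 0.118 and 12.9 in ND LP. The values of 0.116, 0.136 and 0.118 stand for 1 read each, so Mmp7 was detected beyond single reads in 5 of the 12 libraries, all of them among the 6 in which the other granule genes were high. PA LP replicate 2 was the exception among those 6, with Defa24 at 1988 FPKM and 1 read of Mmp7. The highest value, 483 in ND LP replicate 1, was far above every other, and the log2 fold change in LP was -2.83 (SE 1.89; limma adjusted p 0.979) with it and -0.52 without it. No fold is given for IEL, since PA IEL was at 0 throughout.

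Pla2g2a encodes the secretory phospholipase A2 of group IIA. It was at 21.6, 0 and 0.139 FPKM in PA IEL and at 534, 22.8 and 596 in ND IEL. Its LP values were 45.9, 252 and 364 with PA milk and 560, 106 and 142 with ND. All PA IEL libraries were below all ND IEL libraries, though PA IEL replicate 1 and ND IEL replicate 2 lay close together, and the LP groups overlapped. The log2 fold change was -6.06 (SE 1.38; limma adjusted p 0.947; exact permutation p = 0.1) in IEL and -0.33 (SE 1.38; limma adjusted p 0.994) in LP. The size in IEL depends on the pseudocount, since PA IEL replicates 2 and 3 held 0 and 1 reads, and it was -7.91 with a pseudocount of 0.1 and -8.08 in limma-voom on recovered reads. In LP it turned to 0.57 without PA LP replicate 1 and to 0.40 without ND LP replicate 1. In the C57BL/6J reference Pla2g2a is annotated as a polymorphic pseudogene, the strain carrying a disrupted copy, and whether HR-1 mice carry an intact copy was not tested; the FPKM values show transcript and say nothing of protein.

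Ang4, an angiogenin-type ribonuclease with antimicrobial activity, was listed at 0 in all 3 PA IEL libraries, where 3 reads would correspond to at most 0.630 FPKM. In ND IEL Ang4 was at 31.1, 0 and 85.8. In LP it was at 0, 53.9 and 19.7 with PA milk and at 0, 0 and 17.8 with ND. It was above 0 in 5 of 12 libraries, and in both layers the groups shared the value 0. In LP the log2 fold change was 1.97 (SE 1.77; limma adjusted p 0.979), the highest of the 7 genes in that layer, and it ran from 0.78 without PA LP replicate 2 to 3.67 without PA LP replicate 1.

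Itln1 encodes intelectin-1, a lectin that binds microbial sugars and is also made by goblet cells. Its values were 7.36, 12.7 and 5.42 FPKM in PA IEL, against 200, 15.6 and 384 in ND IEL. In LP Itln1 was at 39.4, 358 and 257 with PA milk and at 348, 40.7 and 246 with ND. The IEL groups did not overlap, by a margin of 12.7 against 15.6, and the LP groups covered nearly the same range. The log2 fold change was -3.59 (SE 1.18; limma adjusted p 0.947; exact permutation p = 0.1) in IEL. In LP it was 0.02 (SE 1.18; limma adjusted p 1), a value whose sign changed without PA LP replicate 2 (-0.59), PA LP replicate 3 (-0.35) or ND LP replicate 2 (-0.92), and also under upper-quartile scaling (-0.41) and in limma-voom on recovered reads (-0.28).

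Over the 7 genes, PA milk was set against ND in IEL to ask whether the milk diet changed the RNA of that layer. All 7 were lower in PA milk, whereas 60.5% of the 12502 genes tested were lower and the median over all of them was -0.30. Ang4 and Mmp7 were at 0 in all of PA IEL, so they could only come out lower, and the direction was open for the other 5. For the 5 genes that were above 0 in some PA IEL library the median log2 fold change was -3.59, with a range from -6.06 to -3.38. At an adjusted p under 0.05, limma called 0 of the 7 granule genes, with 0% of all genes called. At an unadjusted p under 0.05, 4 of the 7 were lower (Lyz1, Itln1, Ang4 and Pla2g2a), against 2.82% of all genes. Of these, Ang4 had overlapping groups and an exact permutation p of 0.4, so it adds little to the count. Every PA milk library was below every ND library for 3 of the 7 (Lyz1, Itln1 and Pla2g2a), against 5.22% of all genes. The 5 genes with a fold change kept their direction under every alternative tried, upper-quartile scaling included, and limma-voom also called 0 of the 7. Without the 2 libraries with the fewest genes, a choice made after seeing the data, the log2 fold change was -3.92 for Lyz1, -3.89 for Itln1, -5.27 for Pla2g2a, -4.15 for Defa17 and -2.88 for Defa24, so Pla2g2a and Defa24 were weaker than with all libraries, and the median of all genes was 0.00. Without ND IEL replicate 2 as well, in which most granule genes were low, it was -4.46 for Lyz1, -5.24 for Itln1, -6.80 for Pla2g2a, -6.23 for Defa17 and -5.91 for Defa24.

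The same comparison in LP gave no common direction. Of the 7 genes, 4 were lower and 3 higher in PA milk, whereas 62.2% of all genes tested were lower with a median of -0.36. Limma called 0 of the 7 at an adjusted p under 0.05, with 0% of all genes called. At an unadjusted p under 0.05, 0 of the 7 passed in either direction, against 4.7% of all genes, and limma-voom called 0. For 0 of the 7 did the diets separate without overlap, against 9.57% of all genes.

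Whether the diet effect differed between the layers was tested as the PA milk effect in LP minus that in IEL. This difference was 3.03 (SE 1.2) for Lyz1, 3.59 (SE 2.38) for Defa17, 3.58 (SE 2.92) for Defa24, 3.60 (SE 1.66) for Itln1 and 5.73 (SE 1.95) for Pla2g2a on the log2 scale, each with a limma adjusted p of 1. With single libraries left out, the difference ran from 2.08 to 4.03 for Lyz1, 2.52 to 5.66 for Defa17 and 2.03 to 6.62 for Defa24. The range was 2.67 to 4.96 for Itln1 and 4.93 to 7.25 for Pla2g2a. The median over all genes tested was -0.03. At an unadjusted p under 0.05, 4 of the 7 were higher (Lyz1, Itln1, Ang4 and Pla2g2a), against 0.912% of all genes, with Ang4 again resting on values of 0 in PA IEL. At an adjusted p under 0.05 limma and limma-voom called 0 of the 7, with 0% of all genes called by limma, so a difference between the layers was not established for any of them.

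Levels in LP and IEL were compared over both diets. All 7 genes were higher in LP, against 53.4% of all genes tested, with the largest difference for Defa24 at 4.89 (SE 1.46; limma adjusted p 0.129) and the smallest for Ang4 at 0.49 (SE 1.25; limma adjusted p 0.930). Defa17 differed by 3.17 (SE 1.19; limma adjusted p 0.248), Pla2g2a by 2.92 (SE 0.97; limma adjusted p 0.177) and Itln1 by 2.30 (SE 0.83; limma adjusted p 0.221). Without the 3 libraries with the fewest genes, the difference was 2.47 for Defa24, 2.06 for Defa17 and 1.47 for Itln1. For Pla2g2a the lowest value over the alternatives was 1.61. Lyz1 differed by 0.84 and Mmp7 by 1.36, both by about as much as their SE of 0.60 and 1.34 or little more. Without ND LP replicate 1 these values fell to 0.33 and 0.20, and without ND LP replicate 2 they rose to 1.31 and 2.39. For Ang4 the sign turned without ND IEL replicate 2 (-0.46), PA LP replicate 2 (-0.11) or ND LP replicate 3 (-0.22). Limma called 0 of the 7 at an adjusted p under 0.05, where 0.88% of all genes were called, and 4 of the 7 were higher in LP at an unadjusted p under 0.05 (Defa17, Defa24, Itln1 and Pla2g2a), against 7.34% of all genes. Within PA milk, every LP library was above every IEL library for 5 of the 7 genes (Lyz1, Defa17, Itln1, Pla2g2a and Mmp7), against 4.51% of all genes, although for Mmp7 this rests on single reads. Within ND, the layers overlapped for all 7, so that 0 separated, against 19.3% of all genes. The layer difference over both diets thus includes the low PA IEL libraries.

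The mix of granule transcripts also differed between libraries. Lyz1 made up 90.1% and 87.1% of the summed FPKM of the 7 genes in PA IEL replicates 2 and 3 and 90.9% in ND IEL replicate 2. In the other 9 libraries its share was 16.7% to 46.5%, and Defa24 took 30.1% to 64.4%. In those 3 libraries Defa24 was at 0.552, 1.5 and 1.11 FPKM, and Lyz1 was thus nearly the only granule transcript at a level above 20 FPKM, apart from Pla2g2a at 22.8 in ND IEL replicate 2. Lyz2, which encodes the lysozyme of macrophages and other myeloid cells, was at 1725, 405 and 2060 FPKM there, 10.96, 8.45 and 5.20 times the level of Lyz1. The ratio was also high in PA IEL replicate 1 (5.44), where Lyz1 made up only 25.7% of the granule genes, and in PA LP replicate 1 (4.88) and ND LP replicate 1 (4.93). Over all libraries Lyz2 was at 334, 1725 and 405 in PA IEL, 2922, 2060 and 82.3 in ND IEL, 808, 1917 and 181 in PA LP and at 10376, 281 and 573 in ND LP. It ranged widely within every group, and its order did not follow that of Defa24, since ND IEL replicate 3 and PA LP replicate 3 had the lowest Lyz2 and high Defa24. Part of the Lyz1 level where Lyz2 is high is uncertain, because 16.06% of the 50-base stretches of the Lyz1 transcript also occur in Lyz2, and how shared reads were split between them was not tested.

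On the genome build GRCm38 (mm10), Lyz1 lies at chr10:117287797-117292868 on the minus strand, beside Lyz2 at chr10:117277331-117282321. Defa17 (chr8:21655780-21656735) and Defa24 (chr8:21734494-21735471) lie in the alpha-defensin cluster on the plus strand. Itln1 lies at chr1:171518122-171535294 and Ang4 at chr14:51763878-51773590, both on the minus strand. Pla2g2a lies at chr4:138831857-138835186 and Mmp7 at chr9:7692090-7699585, both on the plus strand. The 7 genes are thus on 6 chromosomes, and Defa17 and Defa24 alone share a cluster. Of the 50-base stretches of each transcript, 28.11% of those of Defa24 occur in other genes, most of them in Defa30. The share was 7.36% for Mmp7, all with AV064505, 4.697% for Ang4, 1.007% for Itln1 and 0% for Pla2g2a.

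RefSeq promoters (build GRCm38.p6, from 250 bases before to 50 after the start) were held for Lyz1, Itln1, Ang4 and Mmp7, and not for Defa17, Defa24 and Pla2g2a. The sequences before the starts of Lyz1 and Lyz2 are shown because the pair are neighbouring near copies whose transcripts share sequence. Over the 120 bases before the start they were 92.5% identical, with 9 differing bases, in capitals below. Lyz1 is read from chr10:117292869-117292988 and Lyz2 from chr10:117282273-117282392, both on the minus strand. These are counted from the RefSeq starts, and that of Lyz2, at 117282272, lies inside the GENCODE span given above, so part of its stretch does too.
Lyz1: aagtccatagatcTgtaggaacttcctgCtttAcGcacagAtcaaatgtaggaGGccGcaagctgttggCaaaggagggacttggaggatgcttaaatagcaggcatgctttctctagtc
Lyz2: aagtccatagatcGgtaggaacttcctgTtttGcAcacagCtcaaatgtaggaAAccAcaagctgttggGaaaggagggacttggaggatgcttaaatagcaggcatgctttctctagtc

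The promoters of the alpha-defensin family were searched on both strands for short motifs, including those of Defa20, Defa21 and Defa23, which were listed at 0 in all 12 libraries. The motif CTTTGAT, which TCF/LEF factors of the Wnt pathway can bind, was found in 9 of 11 distinct alpha-defensin promoters (81.8%), against 3.73% of 32851 promoters of all genes. The variant CTTTGAA, also a TCF/LEF motif, was found in 0 of the 11, against 5.14% of all promoters. The TATA box motif TATAAA was found in 10 of the 11 (90.9%), against 13.6% of all promoters. The motifs do not overlap each other in the sequence below, and a match describes the letters only. Of the granule genes outside the family, the Mmp7 promoter held the first motif on the opposite strand just after the start and the TATA box at positions -123 and -26 from the start, and those of Lyz1, Itln1 and Ang4 held none of the motifs. The 120 bases before the start of Defa22, which had a mean of 5.13 FPKM (chr8:21162157-21162276, plus strand), show the arrangement, with 2 copies of the first motif, read on the opposite strand, and the TATA box in capitals.
Defa22: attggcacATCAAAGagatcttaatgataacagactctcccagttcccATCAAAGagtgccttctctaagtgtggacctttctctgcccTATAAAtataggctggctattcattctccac

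Most other alpha-defensin genes tested were high in several of the libraries in which the granule genes were high. Of 16 others in the table, taken as every further symbol that starts with Defa and AY761184, 7 passed the filter on low values. All 7 were lower in PA IEL than in ND IEL, against 60.5% of all genes tested, and their median was -2.99 on the log2 scale. Defa22, Defa26 and Defa5 were at 0 in all of PA IEL, so they could only come out lower. Their fold changes are part of that median. In LP, 3 were lower and 4 higher in PA milk, with a median of 0.80, which is the value of AY761184, and limma called 0 of them in either layer. Further genes that RefSeq names as alpha-defensins carry other symbols in the table and are not among the 16. Defa6, the most abundant, was at 96.2, 0.363 and 0.000724 FPKM in PA IEL and at 912, 0.000688 and 1233 in ND IEL, and at 65.6, 355 and 1318 in PA LP and at 1268, 91.7 and 1451 in ND LP. Its log2 fold change in IEL was -4.35, with a limma adjusted p of 0.947 and a range of -7.70 to -2.57 with single libraries left out. ND IEL replicate 2 was again as low as PA IEL replicates 2 and 3, and the LP groups overlapped. Defa4 was at 82.4, 0 and 0 in PA IEL, 821, 0 and 520 in ND IEL, 118, 116 and 727 in PA LP and at 0, 129 and 261 in ND LP, with log2 fold changes of -4.11 in IEL and 2.74 in LP (limma adjusted p 0.947 and 0.979). With single libraries left out it ran from -7.23 to -2.39 in IEL, and in LP it was 0.23 without ND LP replicate 1. Defa5 was listed at 0 in all libraries of PA IEL and ND LP, at 8.16, 0 and 5.79 in ND IEL and at 1.10, 3.43 and 8.16 in PA LP. Both Defa4 and Defa5 were thus at 0 in ND LP replicate 1, where Lyz1 and Defa24 were high. These genes share sequence, and 99.69% of the 50-base stretches of Defa5 occur in other genes, so the levels of single family members are uncertain. Summed over the 16 genes, the level was 194, 0.363 and 0.985 in PA IEL, 1841, 0.000688 and 1927 in ND IEL, 185, 965 and 2586 in PA LP against 1390, 288 and 2066 in ND LP.

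By the correlation of log2(FPKM + 1) over the 12 libraries with the mean of the 7 granule genes, the most similar of all other genes tested was Gm10104 (Pearson r = 0.967, Spearman rho = 0.883). Next came Defa6 (r = 0.932, rho = 0.804), Gm15292 (r = 0.930, rho = 0.848) and Galnt4 (r = 0.921, rho = 0.866). Defa26 (r = 0.918, rho = 0.805), Gm15284 (r = 0.907, rho = 0.867) and Gm15299 (r = 0.888, rho = 0.833) followed. RefSeq names Gm10104, Gm15292, Gm15284 and Gm15299 as Defa35, Defa40, Defa30 and Defa27, so that all of these named genes but Galnt4 are alpha-defensin genes. Galnt4 encodes an enzyme that starts O-linked sugar chains. After subtraction of the group means, r was 0.838 to 0.939, for genes that had been chosen by their r over the same libraries. The mean of the 7 granule genes includes Defa17 and Defa24. Both share 50-base stretches with other genes, Defa24 mostly with Defa30. How shared reads bear on r was not tested. Gm15284 (Defa30) was at 44.9, 0.400 and 0.434 FPKM in PA IEL, 1059, 0.857 and 953 in ND IEL, 47.9, 534 and 820 in PA LP and at 76.4, 153 and 720 in ND LP.

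Markers of other epithelial cells, which the gate should leave out, were present in these libraries and moved partly with the granule genes. The 10 pan-epithelial markers, all tested, summed to 4080, 1053 and 9854 FPKM in PA IEL and to 9742, 7531 and 7471 in ND IEL. In LP the sum was 823, 1243 and 324 with PA milk and 2352, 2213 and 4859 with ND. Lower with PA milk were 9 of the 10 in IEL (median log2 fold change -1.92), against 60.5% of all genes (median -0.30). In LP 10 of the 10 were lower (median -2.33), against 62.2% of all genes (median -0.36). These markers thus went the same way as the granule genes in IEL, and limma called 0 of them in either layer. At an unadjusted p under 0.05, 5 of the 10 were lower in LP, against 4.7% of all genes in either direction. In IEL this held for 1 of the 10, against 2.82% of all genes. Their most abundant gene was Krt8, with a mean of 1420 FPKM, and Krt18 was at 0 in PA IEL replicate 2. Between the layers, 9 of the 10 pan-epithelial markers were lower in LP (median -2.18), against 46.6% of all genes. That is the opposite direction from the granule genes. Limma called 3 of the pan-epithelial markers there, against 0.88% of all genes. In IEL, PA IEL replicate 3 had the highest pan-epithelial sum of all 12 libraries and the lowest sum of granule genes. In LP, PA LP replicate 3 had the lowest pan-epithelial sum and the second highest sum of granule genes. The granule genes thus came to 0.0585, 0.166 and 0.00557 of the pan-epithelial sum in PA IEL and to 0.377, 0.0579 and 0.434 in ND IEL. The ratio was 0.471, 2.77 and 11.8 in PA LP, against 2.46, 0.334 and 0.590 in ND LP. In both layers the diets overlapped in this ratio, since ND IEL replicate 2 lay below PA IEL replicates 1 and 2. The part of carried-over epithelial RNA in the granule gene values was not tested.

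**Figure D2:**
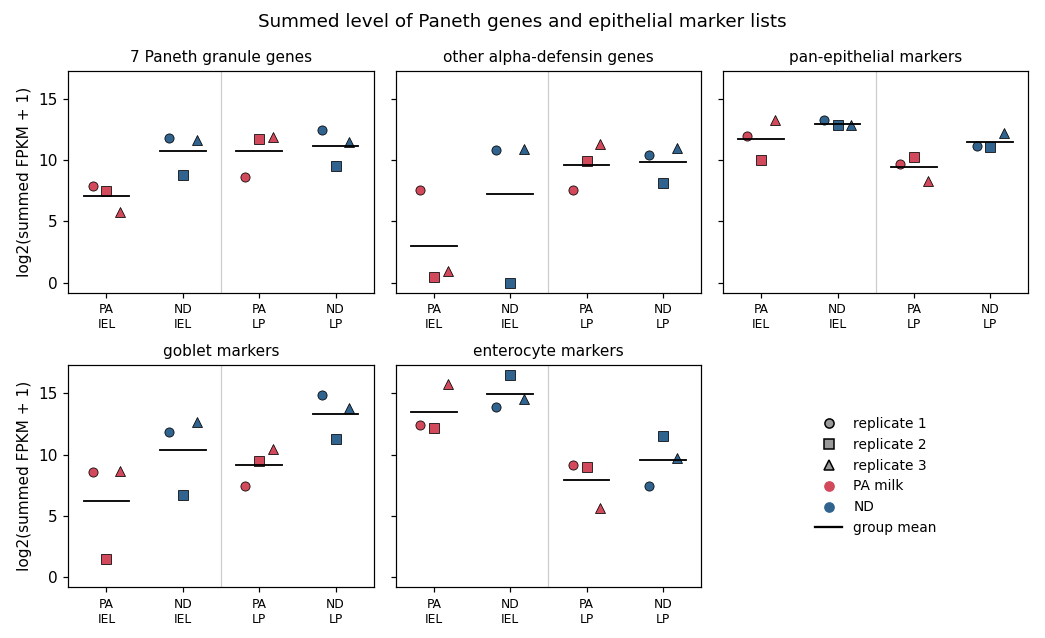
Summed FPKM of the 7 Paneth granule genes, the 16 other alpha-defensin genes and 3 lists of epithelial markers in the 12 libraries, as log2(summed FPKM + 1) on the vertical axis, by group on the horizontal axis, with 1 symbol per library and a line at the group mean. PA LP replicates 2 and 3 stand with the ND LP libraries for the Paneth granule genes, while all 3 PA LP libraries stand below all 3 ND LP libraries for the summed goblet markers.

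The summed goblet markers separated the LP groups, which the granule genes did not, although Clca1, Spink4 and Retnlb overlapped between the diets there. Of 9 goblet markers 8 were in the table, and they summed to 387, 1.84 and 392 FPKM in PA IEL, 3724, 102 and 6340 in ND IEL, 170, 703 and 1400 in PA LP and to 30447, 2462 and 14024 in ND LP. PA LP replicates 2 and 3, with 3440 and 3822 FPKM of granule genes, had lower goblet sums than ND LP replicate 2, with 739 FPKM of granule genes. The most abundant goblet gene was Zg16, with a mean of 1373 FPKM, and Fcgbp was at 0 in PA IEL replicate 1 and ND IEL replicate 2. Goblet markers had a median change of -2.44 in IEL and -5.15 in LP on the log2 scale, beside -3.59 and -0.33 for the 5 granule genes above 0 in PA IEL. Limma called 0 of them in either layer. At an unadjusted p under 0.05, 5 of the 8 goblet markers were lower in LP, against 4.7% of all genes in either direction. In IEL this held for 1 goblet marker, against 2.82% of all genes. Enterocyte markers, 10 of 10 tested and led by Fabp2 with a mean of 5519 FPKM, summed to 5491, 4500 and 55044 in PA IEL, 15353, 91648 and 23293 in ND IEL, 560, 505 and 49.9 in PA LP and to 166, 2920 and 857 in ND LP. Of the 10, 9 were lower with PA milk in IEL (median log2 fold change -1.29), as were all 10 in LP (median -1.28). Over all genes 60.5% and 62.2% were lower. ND IEL replicate 2 had the highest enterocyte sum of all libraries and low granule genes. Enterocyte markers were lower in LP than in IEL, with a median of -5.36 and 6 of the 10 called by limma, against 0.88% of all genes, the opposite direction from the granule genes. Goblet markers went the same way as the granule genes between the layers. Higher in LP were 8 of 8, beside 7 of 7 granule genes and 53.4% of all genes, and limma called 0 in either list.

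Enteroendocrine markers were at 0 in many libraries, and crypt stem markers varied widely. The 5 crypt stem markers, led by Olfm4, summed to 419 and 359 FPKM in ND IEL replicates 1 and 3, the libraries of that layer in which granule genes were high, and to 0.0718 in ND IEL replicate 2. In PA IEL they summed to 5.37, 24.0 and 45.3, in PA LP to 43.6, 152 and 21.3 and in ND LP to 12.2, 30.7 and 25.2. The LP libraries with high granule genes thus had stem marker sums of 12.2 to 152. Of the 4 tested, 3 were lower with PA milk in IEL and 1 in LP, against 60.5% and 62.2% of all genes. Their median log2 fold changes were -1.96 and 1.09. At an unadjusted p under 0.05, Olfm4 and Ascl2 were lower in IEL, against 2.82% of all genes. Ascl2 reached 1 FPKM in 3 libraries, all ND, so it passed the filter only through that diet. Limma called 0 of the 4 in either layer. All 4 were higher in the PA milk effect in LP minus that in IEL (median 2.29), against 49.2% of all genes (median -0.03). Ascl2 was at 0 in all PA milk libraries, so its value in this difference rests on ND alone. Chga, the enteroendocrine marker that passed the filter, was at 8.92, 0 and 12.4 FPKM in ND IEL, at 0, 4.67 and 0.518 in ND LP and listed at 0 in all of PA IEL and PA LP, whereas Sst was at 20.8 in PA LP replicate 3 and at 10.3 in ND IEL replicate 3. Of the tuft cell markers, Pou2f3 and Il25 were listed at 0 in all libraries. Among leukocyte lists, the median change with PA milk was -1.21 in IEL and -1.80 in LP for 6 T cell markers, -0.35 and -4.45 for 5 B and plasma cell markers, and 0.28 in both layers for 7 macrophage markers. The 12 markers of the sorted cells had a median of 0.69 in IEL, where 8 of the 12 were higher with PA milk, against 39.5% of all genes. In LP their median was -1.76, and 11 of the 12 were lower, against 62.2% of all genes. One of these 11 was Il17a, which reached 1 FPKM in ND libraries only and adds nothing to that count. What these lists have to do with the granule gene levels was not tested.

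Other secretory genes linked with Paneth cells were mostly lower with PA milk in both layers. Of 24 genes on that list 20 were in the table and 15 were tested, and 13 of the 15 were lower in PA milk in IEL and 14 of the 15 in LP, against 60.5% and 62.2% of all genes tested. The list includes Il17a, which is also among the markers of the sorted cells, and Lyz2, which is also among the macrophage markers. Their medians were -1.67 and -3.10. Limma called 0 of them in either layer at an adjusted p under 0.05. At an unadjusted p under 0.05, 4 were lower in IEL, against 2.82% of all genes. In LP 6 were lower, Il17a among them, against 4.7% of all genes in either direction. Il17a reached 1 FPKM in 4 libraries, all ND. It thus passed the filter only through the diet in which it was high, and it adds nothing to the count. Reg3b, a lectin that enterocytes also make, was the most abundant, at 28.0, 2.25 and 1431 FPKM in PA IEL, 22959, 2728 and 10526 in ND IEL, 2.68, 3.31 and 10.5 in PA LP and at 308, 7447 and 1704 in ND LP. Its diets did not overlap in either layer, with log2 fold changes of -7.41 in IEL and -8.12 in LP (limma adjusted p 0.947 and 0.293). Without PA IEL replicate 3, limma called Reg3b in both layers, with adjusted p of 0.00972 in IEL and 0.0247 in LP, the lowest of all alternatives, the highest being 1 in both. In PA LP replicates 2 and 3, Reg3b was thus near its lowest while Defa24 was at its levels of 1988 and 2397 FPKM.

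Genes of Paneth cell development and crypt signalling are given next as counts, and whether their change differed between the layers was not tested for the list. Of 18 such genes, all in the table, 16 were tested, and 10 were lower with PA milk in IEL and 13 in LP, against 60.5% and 62.2% of all genes. The medians were -0.13 and -1.27, against -0.30 and -0.36 over all genes. Limma called 0 of them in either layer, with 0 at an unadjusted p under 0.05 in IEL and 1 of the 16 in LP, a share near the 4.7% of all genes. That gene, Atoh1, which directs secretory cell fate, was at 66.3, 0 and 36.7 FPKM in ND LP. It was listed at 0 in all libraries of PA LP, including replicates 2 and 3 in which granule genes were high. Atoh1 reached 1 FPKM in 3 libraries, all ND. It thus passed the filter only through the diet in which it was high, and its p-value has no weight. Sox9, a factor that Paneth cells need, was at 6.18, 0 and 10.5 in PA IEL, 9.43, 0 and 4.55 in ND IEL, 0.553, 4.51 and 7.50 in PA LP and at 6.42, 16.9 and 15.3 in ND LP. Its groups overlapped in both layers, and it was highest in ND LP replicate 2, where the granule genes were low.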

How the data were processed

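RNA of sorted ILC3s was measured in 12 libraries, with groups and replicate numbers taken from the sample labels. Per the processing notes, the authors aligned reads to mm10 by TopHat2 2.1.1 and estimated gene levels by Cufflinks 2.2.1. They deposited FPKM values, the basis of every level here, and a table of scaled counts, a signal that the authors divided by a size factor and rounded. Values were tested as log2(FPKM + 1) with limma 3.58.1 (R 4.3.3, variance trend) in 1 fit of 4 group means, for the 12502 genes that reached 1 FPKM in 3 or more libraries. Benjamini-Hochberg adjustment ran over all of these, with a threshold of 0.05. Fold changes on this scale understate those of low genes. Ang4 and Mmp7 passed the filter with 5 libraries each. Reads per value were recovered from the step between low FPKM values, 90.5% to 96.4% of which were whole within 0.05. They cover counting error only.

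The 7 genes and all lists were chosen with earlier results of these data known. The genes named from a list were the 3 most abundant or those at an unadjusted p under 0.05 in a layer, of which those that bear on the granule genes are given with values; Sox9, Krt18, Clca1, Retnlb and the markers listed at 0 were named after their values were seen. The 8 most similar genes were ranked by Pearson r over 12 libraries. Some genes that these rules name are not reported here. Alternatives were a pseudocount of 0.1, no filter, upper-quartile scaling, scaled counts, limma-voom on recovered reads, the 6 libraries of a layer, a replicate block and each library left out. Scripts were tested on simulated data. Coordinates and transcripts are those of GENCODE vM21. Python 3.11.15, numpy 2.4.6, pandas 2.3.3, scipy 1.17.1 and matplotlib 3.10.9 were used.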

Additional observations from a re-analysis of the deposited data

How the results depend on the processing

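Limma called 0 of the 7 granule genes in each of the 4 comparisons under every alternative. In IEL the adjusted p over the alternatives ran from 0.175 (Pla2g2a) to 1, and in the layer comparison the lowest was 0.0669 (Defa24). Other scalings moved the median of all genes: it was -0.30 in IEL and -0.36 in LP, -0.58 and -0.61 with upper-quartile scaling, -0.80 and -0.84 with scaled counts and -0.97 and -1.01 in limma-voom. It was 0.00 and -0.05 without the 2 libraries with the fewest genes and -0.05 in both layers without the 3. The 5 fold changes in IEL kept their sign under all alternatives, as did the 5 differences between the layers. Their size moved with single libraries left out, from -3.95 to -2.90 for Lyz1, -5.46 to -2.32 for Defa17, -7.12 to -2.54 for Defa24, -4.94 to -2.67 for Itln1 and -7.58 to -5.25 for Pla2g2a in IEL.

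In LP the sign turned with single libraries left out, over which the fold change ran from -1.34 to 0.62 for Lyz1, -0.70 to 1.78 for Defa17, -1.25 to 0.84 for Defa24, -0.92 to 0.99 for Itln1 and -0.91 to 0.57 for Pla2g2a. For Ang4 the layer difference ran from -0.46 to 1.34. Defa17 in LP was -0.21 with upper-quartile scaling, and Itln1 was -0.41 there and -0.28 in limma-voom. Without the 2 libraries with the fewest genes, or the 3, both chosen after seeing the data, Defa17 was -0.70 and Itln1 -0.59 in LP. The layer difference of Ang4 was -0.11 without the 2 and -1.06 without the 3. The cause of these changes was not tested.

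Over all genes, limma called 0 in IEL (447 at an unadjusted p under 0.05), 0 in LP (588), 0 for the difference between the layers (292) and 110 between the layers. With single libraries left out the counts ran from 0 to 1 in IEL, 0 to 7 in LP (7 without PA LP replicate 3) and 38 to 521 between the layers (521 without PA LP replicate 2). Without the 3 libraries with the fewest genes, 1 gene was called in IEL, and limma-voom called 3 in LP. Between the layers 58 genes were called with the pseudocount of 0.1, 30 without the filter, 34 with scaled counts, 826 without the 2 libraries with the fewest genes and 688 without the 3. With the replicate block, 3 genes were called in LP, and the block result for the layers was 103. Deviations of same-numbered libraries from their group means had correlations of -0.12 to 0.07. With 3 libraries per group that vary this much, such values cannot tell whether same-numbered libraries came from 1 mouse.

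Depth sets a floor of 3 reads, which is 0.183 to 0.290 FPKM for Lyz1 and 0.952 to 1.51 for Defa17. Values under it have no order, which touches Mmp7 in PA LP replicates 1 and 2 and ND LP replicate 2, Defa24 in PA IEL replicate 2 (in ND IEL replicate 2 it was at the floor), Pla2g2a in PA IEL replicates 2 and 3, and each value of 0.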
